A study of Homo sapiens with 8 samples.

Results

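Cholesterol is built from acetyl-CoA by a chain of enzymes, and fatty acids are built from the same precursor by a shorter branch. The genes described here are 29 members of these routes and of their control, listed by symbol. Of these, 28 were measured, each through the probe set with the highest mean over the 8 arrays among those annotated to that symbol alone, out of 14517 genes tested on the array. All 28 reached the level required for testing, a mean log2 level of at least 3.21. FDFT1, the squalene synthase gene, was not analysed here.

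The human neuroblastoma lines SKNAS, NB1691, SKNBE2 and SKNAS/shHIF1a were each cultured for 48 h either with vehicle alone or with ciclopirox at 2.5 µM, and total RNA was hybridised to arrays. Ciclopirox is an iron chelator used against fungi. The line SKNAS/shHIF1a carries a stable HIF1A knockdown, and its name ties it to SKNAS, so those lines are related. The labels give SKNAS a c-Myc status and the other 3 lines an N-Myc status. There was 1 array per line and treatment, so a difference within a line has no error of its own, and nothing in the labels says whether cultures were separate.

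In the mevalonate route, acetyl-CoA units are joined and reduced to mevalonate, which is turned into isoprenoid units and then squalene. Squalene is oxidised and closed to lanosterol, and lanosterol is trimmed to cholesterol by demethylases, isomerases and reductases. The genes are under the control of SREBP transcription factors, which the SREBF1 and SREBF2 genes encode. SCAP escorts SREBP out of the endoplasmic reticulum when sterols are low, and the INSIG proteins hold both back when sterols are high. Several of the enzymes use iron: MSMO1, SC5D and SCD at a di-iron centre and CYP51A1 in heme.

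Medians of the 8 arrays ranged from 3.47 to 3.52 (log2). Of 9 measured noradrenergic neuroblastoma markers, 8 had a mean level above log2 6 in NB1691 and in SKNBE2, 6 in SKNAS and 5 in SKNAS/shHIF1a. TH, the rate-limiting enzyme of catecholamine synthesis, was at 3.16 in SKNAS and 3.44 in SKNAS/shHIF1a, against 6.74 in NB1691 and 7.90 in SKNBE2. The blood cell marker PTPRC had mean levels of 10.98 in SKNAS and 7.95 in SKNAS/shHIF1a, while the other 3 measured blood cell markers stayed at or below 3.70 on every array. Of the 4 adipocyte markers, LPL, a lipoprotein lipase, had a mean level of 7.82 in NB1691 and of 2.68 to 2.96 in the other lines, while the other 3 did not exceed 3.69 on any array. Of the 4 epithelial markers, KRT18, a keratin, was at 10.60 in SKNAS and 6.95 in SKNAS/shHIF1a, while the other 3 did not exceed 5.11 on any array. The mean level exceeded log2 6 for 6 of 6 mesenchymal markers in SKNAS, 5 in SKNAS/shHIF1a and 3 each in NB1691 and SKNBE2. Markers of endothelial cells did not exceed 6.15 and those of liver cells 4.68, and fewer cells of a type and less RNA per cell cannot be told apart in bulk RNA. The part of these marker differences in the results was not tested. HIF1A had levels of 11.71 and 11.09 in SKNAS/shHIF1a under vehicle and ciclopirox, against 12.25 and 11.94 in SKNAS. The N-Myc label of SKNAS/shHIF1a went against its MYC level, and its MYCN level lay between those of SKNAS and the other N-Myc lines. MYCN was at 5.41 and 5.65 there, against 2.77 and 3.36 in SKNAS and 11.77 or more in NB1691 and SKNBE2. MYC was at 9.86 and 9.23, against 10.16 and 9.10 in SKNAS and at most 3.28 in NB1691 and SKNBE2.

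Sterol synthesis genes were higher under ciclopirox in NB1691 and were mostly near or below their vehicle levels in the other lines. Of the 17 measured genes from ACAT2 to DHCR7, 12 were at least 1.5-fold higher under ciclopirox in NB1691 (70.6%, against 10.3% of all genes tested). The count was 1 in SKNAS (against 8.31% of genes), 0 in SKNBE2 (against 7.71%) and 0 in SKNAS/shHIF1a (against 11.3%). Their median log2 change was 0.88 in NB1691, -0.08 in SKNAS, -0.16 in SKNBE2 and -0.14 in SKNAS/shHIF1a. Over all genes tested the median change lay between -0.03 and -0.01 in every line. None of the 4 fatty acid genes reached 1.5-fold higher in any line by its brightest probe set. With 4 genes, that cannot be set apart from the shares of 7.71% to 11.3% over all genes. Dimmer SCD probe sets did reach it in NB1691, with a change of up to 2.20.

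**Figure D1:**
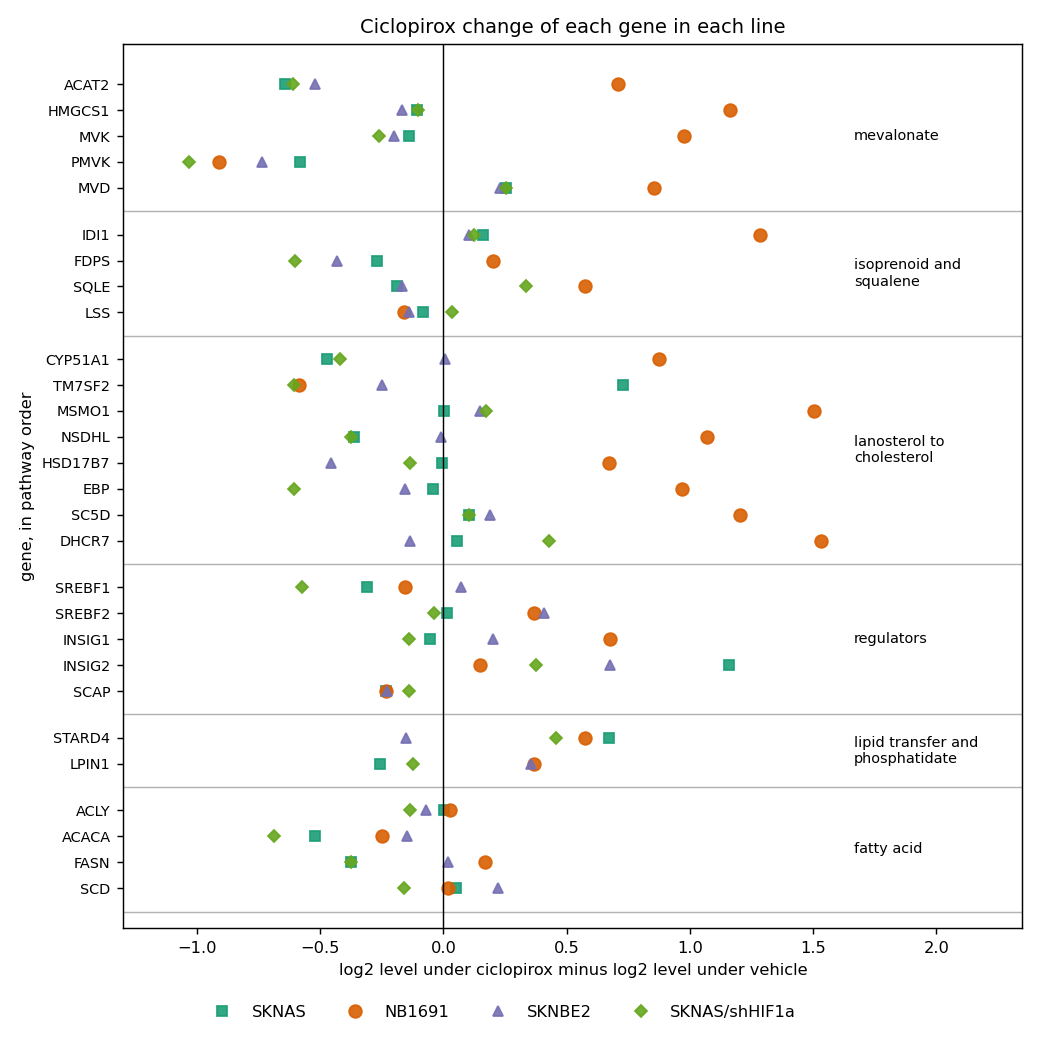
Ciclopirox minus vehicle difference in log2 level (x axis) of each of 28 genes in pathway order (y axis), with 1 point per cell line and no replicates. The NB1691 points lie to the right of all other lines for 14 of the 17 sterol synthesis genes, up to 1.53 for DHCR7, while the points of the fatty acid genes lie between -0.69 and 0.22.

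Promoters of these genes are shown for MSMO1 and NSDHL, which had among the widest differences between NB1691 and the other lines, for SREBF2, the regulator gene whose promoter held a sterol element match, and for PMVK, which was lower in all lines. The sequences are the 250 bases before the start site on the gene's own strand in the RefSeq table of build GRCh38.p14, and capitals mark matches to CCAAT, the box of the factor NF-Y, or to TCACNCCAC, a form of the sterol regulatory element, on either strand.
MSMO1: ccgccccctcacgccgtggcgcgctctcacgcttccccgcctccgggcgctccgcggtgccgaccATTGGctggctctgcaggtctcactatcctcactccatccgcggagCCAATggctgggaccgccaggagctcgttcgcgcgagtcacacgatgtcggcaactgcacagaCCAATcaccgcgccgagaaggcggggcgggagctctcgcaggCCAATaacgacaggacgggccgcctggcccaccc
NSDHL: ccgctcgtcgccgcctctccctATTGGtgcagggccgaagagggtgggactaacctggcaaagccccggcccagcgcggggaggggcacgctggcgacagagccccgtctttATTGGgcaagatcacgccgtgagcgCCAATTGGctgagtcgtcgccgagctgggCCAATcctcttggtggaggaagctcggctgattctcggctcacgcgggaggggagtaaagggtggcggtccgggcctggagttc
SREBF2: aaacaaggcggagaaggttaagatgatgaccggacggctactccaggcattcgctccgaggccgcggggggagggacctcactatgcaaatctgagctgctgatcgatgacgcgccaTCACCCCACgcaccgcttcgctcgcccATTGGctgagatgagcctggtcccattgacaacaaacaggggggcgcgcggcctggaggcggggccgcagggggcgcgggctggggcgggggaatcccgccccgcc
PMVK: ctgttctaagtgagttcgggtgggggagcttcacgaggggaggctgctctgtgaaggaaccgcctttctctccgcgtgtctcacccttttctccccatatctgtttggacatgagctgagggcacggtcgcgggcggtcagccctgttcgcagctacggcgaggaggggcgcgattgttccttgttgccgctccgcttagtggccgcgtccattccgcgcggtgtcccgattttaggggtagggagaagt

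These windows lie at chr4:165327419-165327668 on the plus strand for MSMO1, chrX:152830813-152831062 on the plus strand for NSDHL, chr22:41832855-41833104 on the plus strand for SREBF2 and chr1:154936720-154936969 on the minus strand for PMVK. MSMO1 held 4 CCAAT matches and NSDHL 5, of which 1 pair overlaps in CCAATTGG. SREBF2 held 1 CCAAT match and 1 match to TCACNCCAC, and PMVK held neither. Promoter entries were found for 25 of the 28 genes, with 36 start sites. CCAAT was in 63.9% of these 36 windows, against 32.0% of all 35116 windows of that length. It was found for 19 of the 25 genes. These included TM7SF2 and LSS, which were not higher under ciclopirox in NB1691 by their brightest probe sets. CYP51A1, which was higher there, had no CCAAT match. TCACNCCAC was in 1 of the 36, that of SREBF2 (2.78%, against 0.883%), too few to compare the shares. GGGCGG, the Sp1 box, was in 88.9% against 42.6%. These matches describe letters in the windows and were not tied to the changes by any test.

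In the first steps, 4 of 5 genes were higher in NB1691 under ciclopirox, against 6957 of 14517 genes tested. The remaining gene was lower in all lines. ACAT2, the cytosolic acetoacetyl-CoA thiolase, had log2 levels under vehicle of 9.06 in SKNAS, 10.08 in NB1691, 10.21 in SKNBE2 and 9.28 in SKNAS/shHIF1a. Its ciclopirox levels were 8.42, 10.79, 9.69 and 8.67 in the same order. It was higher with the drug in NB1691 and lower in each of the other lines, with changes of -0.64 in SKNAS, 0.71 in NB1691, -0.52 in SKNBE2 and -0.61 in SKNAS/shHIF1a.

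HMGCS1, which condenses acetoacetyl-CoA to HMG-CoA, stood under vehicle at 9.38 in SKNAS, 10.62 in NB1691, 10.68 in SKNBE2 and 9.69 in SKNAS/shHIF1a. Under ciclopirox the levels were 9.27, 11.78, 10.52 and 9.59, so the NB1691 array with the drug was the highest of the 8. The change in NB1691 was 1.16, a 2.24-fold difference, and the other lines had a mean change of -0.13 ± 0.04 (SD, n = 3 lines). MVK, mevalonate kinase, had a change of 0.97 in NB1691, from 5.59 to 6.57, against -0.20 ± 0.06 in the others. Its 4 vehicle levels were 5.84 in SKNAS, 5.59 in NB1691, 6.03 in SKNBE2 and 5.51 in SKNAS/shHIF1a, and with ciclopirox they were 5.70, 6.57, 5.83 and 5.25, so the NB1691 level moved from below SKNAS and SKNBE2 to the top.

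PMVK, phosphomevalonate kinase, went the other way from its neighbours. Its vehicle levels were 8.46 in SKNAS, 7.95 in NB1691, 8.47 in SKNBE2 and 8.20 in SKNAS/shHIF1a. With ciclopirox they were 7.88, 7.04, 7.73 and 7.17, each below its own vehicle level. MVD, the decarboxylase that makes isopentenyl diphosphate, was measured near background, with levels between 3.13 and 4.21. Its changes were 0.26 in SKNAS, 0.85 in NB1691, 0.23 in SKNBE2 and 0.25 in SKNAS/shHIF1a.

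IDI1, which isomerises isopentenyl diphosphate, was lowest in NB1691 under vehicle and level with the rest under ciclopirox. The vehicle levels were 10.87 in SKNAS, 9.83 in NB1691, 10.64 in SKNBE2 and 10.93 in SKNAS/shHIF1a, and the ciclopirox levels were 11.03, 11.11, 10.75 and 11.05. Its change of 1.28 in NB1691 compares with 0.13 ± 0.03 (SD, n = 3 lines) in the others. FDPS, farnesyl diphosphate synthase, had changes of -0.27 in SKNAS, 0.20 in NB1691, -0.43 in SKNBE2 and -0.60 in SKNAS/shHIF1a. SQLE, squalene epoxidase, a flavin enzyme that commits carbon to sterols, had changes of -0.19, 0.57, -0.17 and 0.34 in the same order of lines. LSS, which closes the ring to lanosterol, stayed within 0.16 of its vehicle level in every line by its brightest probe set.

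Among the 8 genes from lanosterol to cholesterol, all but TM7SF2 were higher in NB1691 with ciclopirox, and each of these had its largest change there. CYP51A1, the heme-dependent lanosterol demethylase, was at 9.93 in SKNAS, 10.22 in NB1691, 9.76 in SKNBE2 and 10.04 in SKNAS/shHIF1a under vehicle and at 9.45, 11.10, 9.77 and 9.62 under ciclopirox. Its NB1691 levels lay above all 6 arrays of the other lines. TM7SF2, a sterol reductase, was at 5.26 in SKNAS, 5.27 in NB1691, 5.11 in SKNBE2 and 5.71 in SKNAS/shHIF1a under vehicle and at 5.99, 4.68, 4.86 and 5.10 under ciclopirox. Its changes were 0.73 in SKNAS, -0.59 in NB1691, -0.25 in SKNBE2 and -0.61 in SKNAS/shHIF1a, so the change was negative in every line but SKNAS.

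MSMO1, the iron-dependent oxidase of sterol methyl groups, had vehicle levels of 11.52 in SKNAS, 10.54 in NB1691, 11.30 in SKNBE2 and 11.74 in SKNAS/shHIF1a. Its ciclopirox levels were 11.52, 12.04, 11.44 and 11.91. NB1691 thus went from the lowest of 4 lines to the highest, a 2.84-fold difference, while the others had a mean change of 0.11 ± 0.09 (SD, n = 3 lines). NSDHL, a sterol dehydrogenase that acts after MSMO1, was also lowest in NB1691 under vehicle and highest there under ciclopirox. It was at 7.64 in SKNAS, 7.0 in NB1691, 7.59 in SKNBE2 and 7.67 in SKNAS/shHIF1a under vehicle and at 7.28, 8.08, 7.58 and 7.29 under ciclopirox.

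HSD17B7, the ketoreductase of the same demethylation, was at 8.72 in SKNAS, 8.86 in NB1691, 8.62 in SKNBE2 and 8.85 in SKNAS/shHIF1a under vehicle and at 8.72, 9.54, 8.16 and 8.71 under ciclopirox. Its change was 0.67 in NB1691 and between -0.45 and -0.01 in the others, and both NB1691 arrays lay above all others. EBP, the sterol isomerase, was already highest in NB1691 under vehicle. Its vehicle levels were 9.23 in SKNAS, 10.55 in NB1691, 10.25 in SKNBE2 and 8.85 in SKNAS/shHIF1a, and its ciclopirox levels were 9.19, 11.52, 10.10 and 8.24.

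SC5D, the iron-dependent desaturase near the end of the route, was at 8.65 in SKNAS, 9.30 in NB1691, 10.34 in SKNBE2 and 9.38 in SKNAS/shHIF1a under vehicle. With ciclopirox it was at 8.76, 10.50, 10.53 and 9.49, so NB1691 came up to SKNBE2. DHCR7, the reductase that makes cholesterol from 7-dehydrocholesterol, had the largest NB1691 change of the members, 1.53 or 2.89-fold. Its vehicle levels were 7.74 in SKNAS, 7.41 in NB1691, 7.91 in SKNBE2 and 7.97 in SKNAS/shHIF1a, and its ciclopirox levels were 7.80, 8.94, 7.77 and 8.39. The NB1691 levels of DHCR7 were the lowest under vehicle and the highest under ciclopirox.

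**Figure D2:**
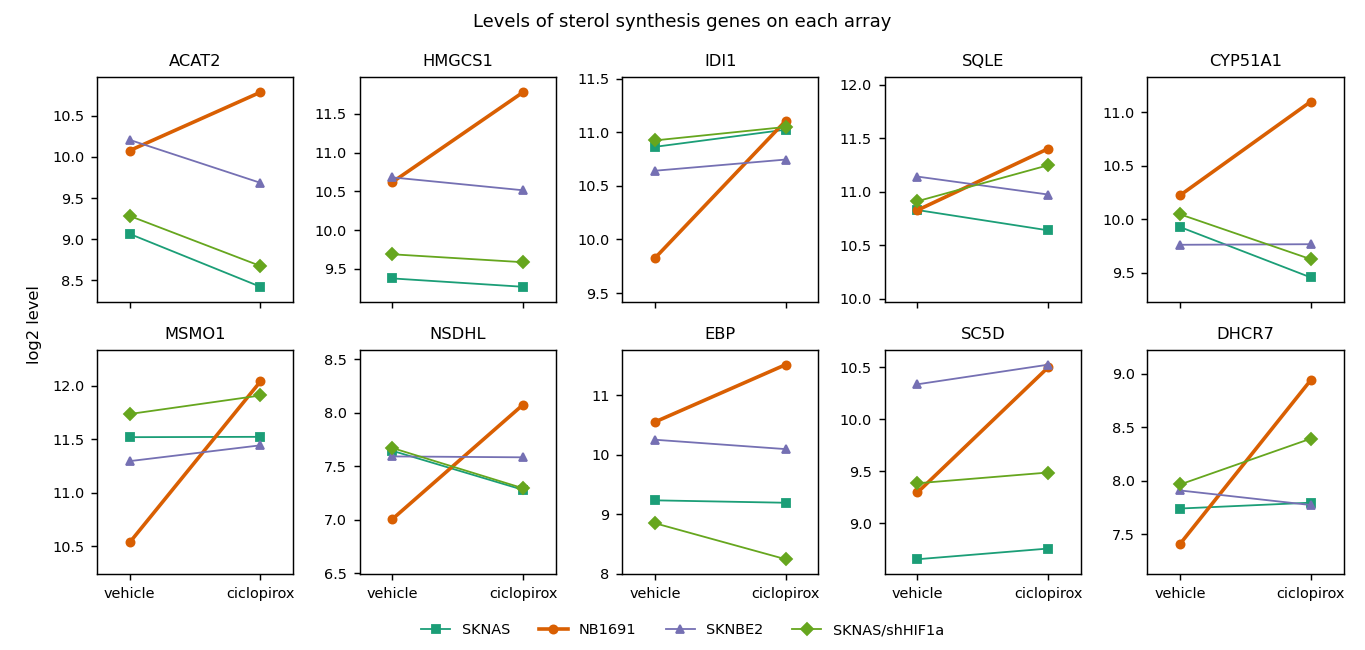
Log2 level (y axis, a separate range for each gene, each spanning at least 2 units) under vehicle and ciclopirox (x axis) for 10 sterol synthesis genes, with 1 array per point and a line joining the arrays of each cell line. MSMO1, NSDHL, IDI1 and DHCR7 start lowest in NB1691 and end highest, while EBP and CYP51A1 start and end highest there.

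The starting point differed between genes. Among the 17 sterol synthesis genes NB1691 had the lowest vehicle level of the 4 lines for 8 (47.1%, against 30.3% of genes tested) and the highest for 4 (23.5%, against 29.8%). Under ciclopirox it had the highest level for 13 (76.5%, against 30.1%) and the lowest for 3 (17.6%, against 29.4%). The highest vehicle levels and lowest ciclopirox levels were thus no more frequent than among all genes.

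The difference in change, NB1691 minus the mean of the other 3 lines, was fitted with limma across all genes tested, with 1 line against 3 and an error that assumes NB1691 varies like the others. Over all genes 0% passed at an adjusted p under 0.05, and 0 members passed in limma. The limma fit gave 11 members higher in NB1691 at an unadjusted p under 0.05 (39.3% of 28, against 5.45% of all genes tested), and 0 lower. All 11 were sterol synthesis genes: ACAT2, HMGCS1, MVK, IDI1, CYP51A1, MSMO1, NSDHL, HSD17B7, EBP, SC5D and DHCR7. NB1691 was singled out with earlier results of these data known, so these counts are a description.

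DHCR7 had a difference of 1.42 ± 0.32 (SE, 95% interval 0.59 to 2.25, adjusted p = 0.325 in limma), and MSMO1 one of 1.40 ± 0.25 (interval 0.76 to 2.04, adjusted p = 0.325). HSD17B7 had the smallest of the 11 at 0.87 ± 0.29 (interval 0.11 to 1.63, adjusted p = 0.379). The other sterol synthesis genes had intervals that included 0, such as FDPS at 0.63 ± 0.27 (-0.06 to 1.33), SQLE at 0.58 ± 0.32 (-0.26 to 1.42) and LSS at -0.10 ± 0.24 (-0.73 to 0.54). For TM7SF2 the interval was wide, -2.02 to 0.93, because the other 3 lines spread from -0.61 to 0.73.

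**Figure D3:**
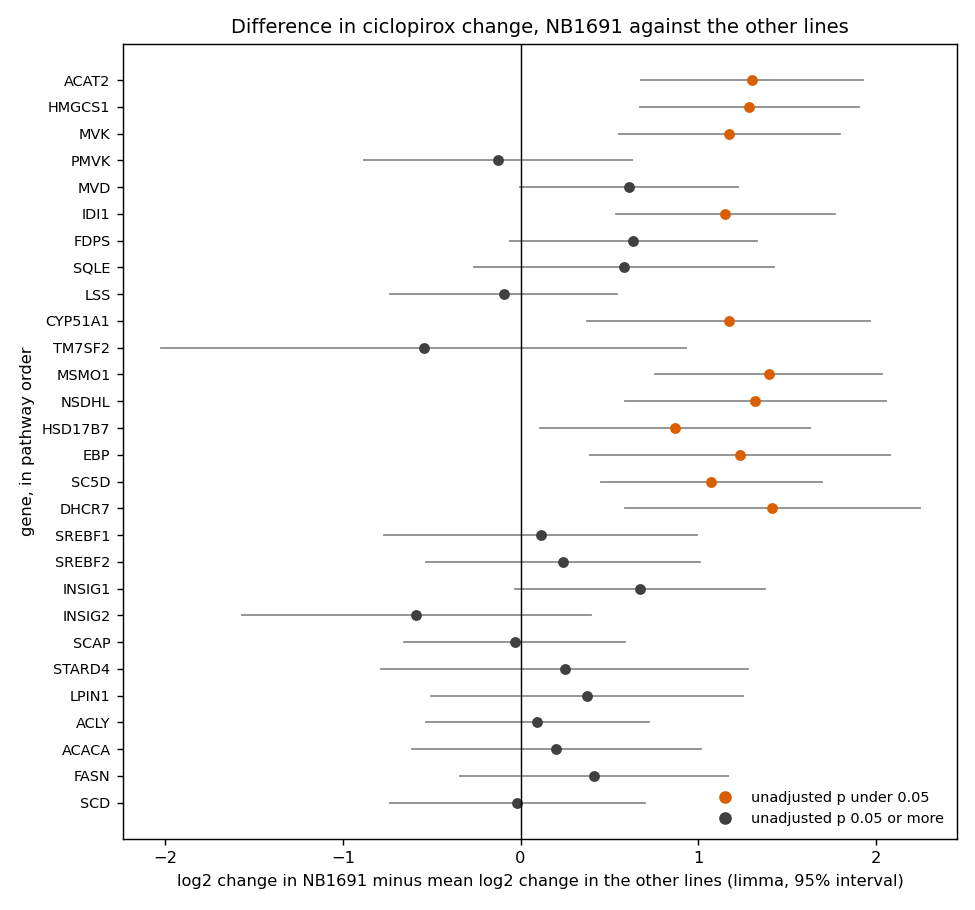
Log2 change in NB1691 minus the mean log2 change of the other 3 lines (x axis), with the 95% interval of the limma fit as a bar, for 28 genes in pathway order (y axis). The 11 genes with an unadjusted p under 0.05 are all in sterol synthesis and lie between 0.87 and 1.42, and none of the 28 had an adjusted p under 0.05.

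Counted without a test, 13 of 28 members were at least 1.5-fold higher in NB1691 (46.4%, against 10.3% of genes tested) and 2, PMVK and TM7SF2, at least 1.5-fold lower (against 13.9%). At 2-fold, 6 members were higher (21.4%, against 3.31%): HMGCS1, IDI1, MSMO1, NSDHL, SC5D and DHCR7. In SKNAS 3 members were at least 1.5-fold higher (TM7SF2, INSIG2 and STARD4, against 8.31% of genes) and 1, ACAT2, lower (against 7.83%). In SKNBE2 INSIG2 was higher (1 member, against 7.71%) and PMVK lower (1 member, against 6.22%). In SKNAS/shHIF1a 0 members were at least 1.5-fold higher (against 11.3%) and 6 lower (against 12.5%): ACAT2, PMVK, FDPS, TM7SF2, EBP and ACACA. Whether these shares differ between lines was not tested.

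The change in NB1691 exceeded those of all other lines for 18 of 28 members (64.3%, against 29% of genes tested). It was positive there and negative in the other 3 lines for 7 members (25%, against 8.2%): ACAT2, HMGCS1, MVK, FDPS, NSDHL, HSD17B7 and EBP.

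Of the 5 regulators, 1, INSIG1, was at least 1.5-fold higher in NB1691 by its brightest probe set (against 10.3% of genes tested). With 5 genes, that cannot be told from the share over all genes. SREBF1, whose product favours fatty acid genes, had changes of -0.31 in SKNAS, -0.16 in NB1691, 0.07 in SKNBE2 and -0.58 in SKNAS/shHIF1a. SREBF2, whose product favours sterol genes, had changes of 0.01, 0.37, 0.41 and -0.04 in the same order. A dimmer SREBF2 probe set had changes of -0.85, 1.24, 0.55 and 0.21, and with the mean of probe sets the NB1691 difference moved from 0.24 to 0.63. INSIG1, itself a sterol-responsive gene, had a change of 0.68 in NB1691, from 10.41 to 11.09, against -0.14 to 0.20 in the others. Its difference was 0.67 ± 0.27 (SE, interval -0.03 to 1.37, adjusted p = 0.435 in limma).

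INSIG2, the other retention protein, had its smallest change in NB1691. Its changes were 1.16 in SKNAS, 0.15 in NB1691, 0.68 in SKNBE2 and 0.38 in SKNAS/shHIF1a, all positive. SCAP, the escort protein, was between -0.23 and -0.14 in all 4 lines. STARD4, a cholesterol transfer protein, had changes of 0.67 in SKNAS, 0.57 in NB1691, -0.15 in SKNBE2 and 0.46 in SKNAS/shHIF1a. LPIN1, a phosphatidate phosphatase, had changes of -0.26, 0.37, 0.36 and -0.12 in the same order.

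The fatty acid branch showed little change in NB1691 by the brightest probe sets. ACLY, which makes cytosolic acetyl-CoA from citrate, had changes of 0.00 in SKNAS, 0.02 in NB1691, -0.07 in SKNBE2 and -0.14 in SKNAS/shHIF1a. ACACA, acetyl-CoA carboxylase, had changes of -0.52, -0.25, -0.15 and -0.69 in that order, all negative. FASN, fatty acid synthase, had -0.38, 0.17, 0.02 and -0.37, and SCD, the iron-dependent stearoyl-CoA desaturase, had 0.05, 0.02, 0.22 and -0.16. The intervals of the difference for these genes were -0.53 to 0.72 for ACLY, -0.61 to 1.01 for ACACA, -0.34 to 1.17 for FASN and -0.73 to 0.70 for SCD, and differences within these intervals could not be told from 0 with these arrays.

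SCD depended on the probe set. Its 5 probe sets had NB1691 changes of 0.02, 0.93, 0.13, 2.20 and 1.63 from the brightest to the dimmest, and the differences from the other lines ran from -0.02 to 2.17. Among the 4 iron enzymes, MSMO1, SC5D and both probe sets of CYP51A1 were at least 1.5-fold higher in NB1691 under ciclopirox. The same held for 3 of the 5 SCD probe sets, but not for the brightest. By brightest probe sets that is 3 of 4, against 12 of the 17 sterol synthesis genes (70.6%) and 10.3% of all genes tested. The 12 include MSMO1, SC5D and CYP51A1, so the 2 counts share genes, and the rest of the 12 are not among the 4 iron enzymes. The rise was thus also seen in genes outside that group, and a part of iron in it was not tested.

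**Figure D4:**
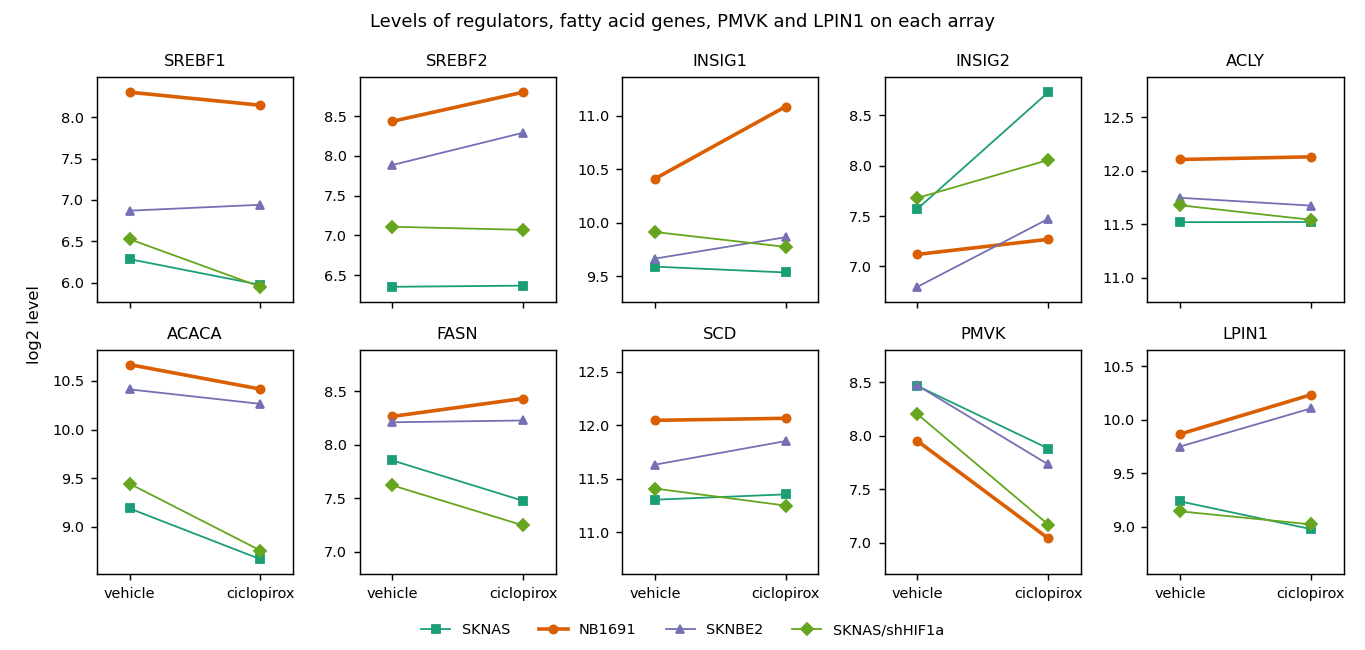
Log2 level (y axis, a separate range for each gene, each spanning at least 2 units) under vehicle and ciclopirox (x axis) for 4 regulators, 4 fatty acid genes, PMVK and LPIN1, with 1 array per point. SREBF1, SREBF2, INSIG1, ACLY, ACACA, FASN and SCD lie highest in NB1691 under both treatments, and PMVK is lower under ciclopirox in all 4 lines.

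Of 18 members with several probe sets at the required level, 14 had the same sign of the NB1691 difference in all of them. HMGCS1 gave 1.29 and 2.25, CYP51A1 1.17 and 2.08, NSDHL 1.32 and 1.78, and DHCR7 1.42 and 1.11. The 4 SQLE probe sets ranged from 0.58 to 1.93, and those of INSIG1 from 0.67 to 1.53. For IDI1, LSS, EBP and SCD the probe sets differed in sign. The IDI1 probe sets gave 1.15 and 1.20 at mean levels above 10, and -1.22 and -1.01 at mean levels of 6.67 and 5.52. The negative EBP value of -0.32 came from a probe set near background, at a mean level of 3.22.

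**Figure D5:**
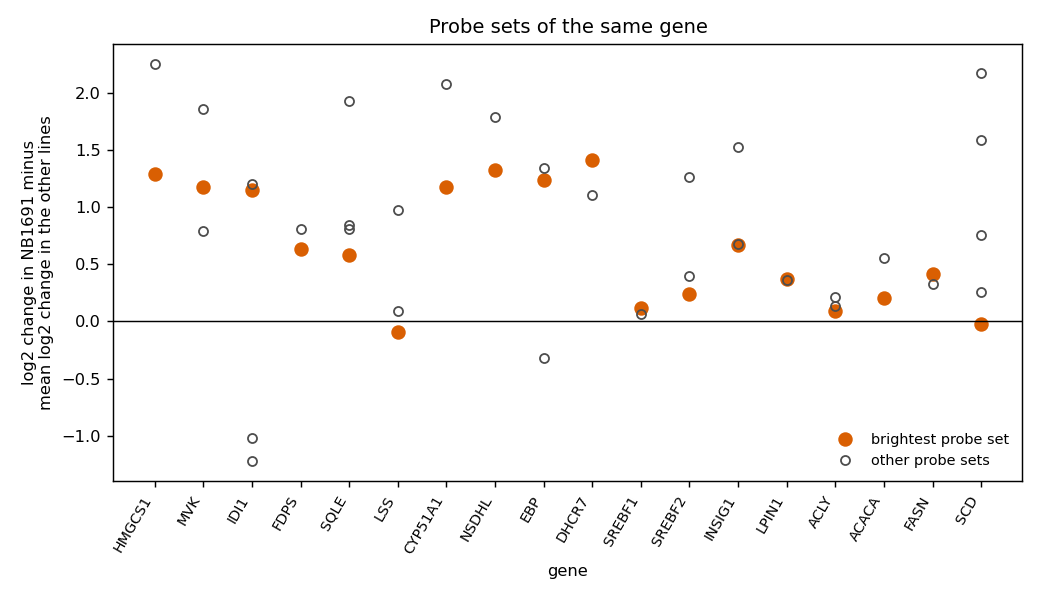
Log2 change in NB1691 minus the mean log2 change of the other 3 lines (y axis) for every probe set at the required level, for 18 genes with more than 1 (x axis), with the brightest probe set filled. The probe sets of HMGCS1, CYP51A1, NSDHL and DHCR7 all lie above 1, and IDI1, LSS, EBP and SCD have points on both sides of 0.

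Levels were also compared between NB1691 and the other lines over both treatments, so that a response to the drug in NB1691 enters the difference. A contrast of NB1691 with the mean of the other lines, averaged over treatments in the limma fit with cell line as a block, called 11 members higher and 2 lower at an adjusted p under 0.05. That is 39.3% of members higher, against 19.2% of genes tested, and 7.14% lower, against 18.9%. The error of this fit is the spread of the ciclopirox change among lines. It holds no spread of levels between lines, so the fit compares these lines only. The count depended on the lines: 5 members passed without SKNAS, 7 without SKNAS/shHIF1a, 12 without SKNBE2 and 5 with SKNAS and SKNAS/shHIF1a averaged.

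SREBF1 and SREBF2 were among the highest. SREBF1 had vehicle levels of 6.28 in SKNAS, 8.30 in NB1691, 6.87 in SKNBE2 and 6.52 in SKNAS/shHIF1a and ciclopirox levels of 5.97, 8.15, 6.94 and 5.95, a difference of 1.80 ± 0.17 (SE, adjusted p = 0.000726, limma). SREBF2 was at 6.35 in SKNAS, 8.43 in NB1691, 7.88 in SKNBE2 and 7.11 in SKNAS/shHIF1a under vehicle and at 6.37, 8.80, 8.29 and 7.07 under ciclopirox, a difference of 1.44 ± 0.16 (adjusted p = 0.0013, limma). For SREBF2 the order was NB1691, SKNBE2, SKNAS/shHIF1a and SKNAS under both treatments. For SREBF1 the NB1691 arrays stood over a log2 unit above the rest.

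EBP differed by 1.73 ± 0.30 (adjusted p = 0.00682), ACACA by 1.09 ± 0.16 (adjusted p = 0.00389) and INSIG1 by 1.02 ± 0.19 (adjusted p = 0.00953), all in limma. INSIG1 was at 9.59 in SKNAS, 10.41 in NB1691, 9.67 in SKNBE2 and 9.91 in SKNAS/shHIF1a under vehicle and at 9.54, 11.09, 9.87 and 9.78 under ciclopirox. These 3 genes, SREBF1 and SREBF2 passed the level test in all 10 alternatives run, while the call was lost in 3 for ACAT2 and HMGCS1, in 4 for ACLY and SCD and in 5 for FASN, LPIN1, PMVK and LSS. With the mean of probe sets the difference moved to 1.07 for SREBF1, 0.95 for SREBF2 and 0.68 for ACACA. Over the alternatives it ran from 0.37 to 0.80 for FASN, 0.45 to 0.95 for LPIN1 and -0.52 to -0.17 for LSS. All 4 fatty acid genes were higher in NB1691: ACLY by 0.50 ± 0.13, ACACA as given, FASN by 0.58 ± 0.17 and SCD by 0.59 ± 0.14 (SE; adjusted p = 0.0257, 0.00389, 0.04 and 0.0205). Their vehicle levels were, for ACACA, 9.19 in SKNAS, 10.67 in NB1691, 10.41 in SKNBE2 and 9.44 in SKNAS/shHIF1a, and for FASN, 7.85 in SKNAS, 8.26 in NB1691, 8.21 in SKNBE2 and 7.62 in SKNAS/shHIF1a. The ciclopirox levels were 8.67, 10.42, 10.26 and 8.76 for ACACA and 7.47, 8.43, 8.22 and 7.24 for FASN.

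ACLY stood at 11.52 in SKNAS, 12.10 in NB1691, 11.75 in SKNBE2 and 11.68 in SKNAS/shHIF1a under vehicle, and SCD at 11.31 in SKNAS, 12.05 in NB1691, 11.63 in SKNBE2 and 11.41 in SKNAS/shHIF1a. Under ciclopirox these were 11.52, 12.13, 11.67 and 11.54 for ACLY and 11.36, 12.07, 11.85 and 11.25 for SCD. Both NB1691 arrays lay above all 6 other arrays for 10 members (35.7%, against 15.6% of genes tested): CYP51A1, HSD17B7, EBP, SREBF1, SREBF2, INSIG1, ACLY, ACACA, FASN and SCD. ACAT2, HMGCS1 and LPIN1 also passed as higher, by 1.21 ± 0.29, 1.35 ± 0.29 and 0.68 ± 0.18 (SE; adjusted p = 0.0221, 0.0148 and 0.0306, limma), but their NB1691 arrays overlapped with those of SKNBE2. Under vehicle ACAT2 and HMGCS1 were lower in NB1691 than in SKNBE2. LPIN1 was at 9.24 in SKNAS, 9.87 in NB1691, 9.75 in SKNBE2 and 9.14 in SKNAS/shHIF1a under vehicle and at 8.98, 10.23, 10.11 and 9.02 under ciclopirox. PMVK and LSS were lower, with differences of -0.49 ± 0.15 and -0.46 ± 0.13 (adjusted p = 0.0443 and 0.0366, limma). LSS was at 9.58 in SKNAS, 9.24 in NB1691, 9.61 in SKNBE2 and 9.75 in SKNAS/shHIF1a under vehicle and at 9.50, 9.08, 9.47 and 9.78 under ciclopirox.

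Averaged over the 4 lines, ciclopirox against vehicle called 0% of genes in limma with cell line as a block, and 0 members passed. At an unadjusted p under 0.05 there were 4 members (14.3%, against 17.9% of genes tested), a share near the background. PMVK had a mean change of -0.82 ± 0.13 (SE, n = 4 lines, adjusted p = 0.129), ACACA -0.40 ± 0.14 (adjusted p = 0.233), INSIG2 0.59 ± 0.19 (adjusted p = 0.213) and MVD 0.40 ± 0.15 (adjusted p = 0.266). The direction was shared by all 4 lines in each of these genes. Without the block the count at that unadjusted level was 1, and with 1 line left out it was 2 without SKNAS, 5 without NB1691, 3 without SKNBE2 and 2 without SKNAS/shHIF1a.

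A list of 32 further genes of sterol and fatty acid supply, transport and control was set beside the members, of which 26 were measured. In NB1691 6 of 26 were at least 1.5-fold higher (23.1%, against 10.3% of genes tested) and 4 at least 1.5-fold lower (15.4%, against 13.9%, a share near the background), with a median change of 0.21. At an unadjusted p under 0.05, limma gave 3 with a larger change in NB1691, ACSS2, ELOVL6 and NPC2 (11.5%, against the 5.45% above), and 0 passed the adjusted test. ACSS2, which makes acetyl-CoA from acetate, had changes of 0.03 in SKNAS, 2.30 in NB1691, 0.04 in SKNBE2 and 0.02 in SKNAS/shHIF1a. Its vehicle levels were 7.55 in SKNAS, 7.21 in NB1691, 6.77 in SKNBE2 and 7.36 in SKNAS/shHIF1a, and its difference was 2.27 ± 0.24 (SE, interval 1.66 to 2.88, adjusted p = 0.242 in limma).

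ELOVL6, a fatty acid elongase, had changes of -0.95, 0.41, -0.59 and -0.98 in the order SKNAS, NB1691, SKNBE2 and SKNAS/shHIF1a. SOAT1, which esterifies cholesterol, had -0.01, -1.12, -0.73 and 0.15, and TMEM97, a sterol-responsive membrane protein, had -0.09, 0.75, 0.23 and -0.57. The ELOVL6 change was positive in NB1691 alone, and that of SOAT1 was lowest there. NPC1 and NPC2, which carry cholesterol out of lysosomes and are named after their values were seen, had changes of 1.03 in SKNAS, 1.36 in NB1691, 0.83 in SKNBE2 and 1.52 in SKNAS/shHIF1a for NPC1 and of 0.67, 1.51, 0.66 and 0.78 for NPC2. Both were positive in all 4 lines, with means of 1.19 ± 0.15 (adjusted p = 0.121) and 0.90 ± 0.18 (adjusted p = 0.153), which did not pass.

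Averaged over treatments, 8 of the 26 were higher in NB1691 in limma (30.8%, against 19.2% of genes tested) and 7 lower (26.9%, against 18.9%). The higher ones were ACAT1, ACSL1, FADS1, MBTPS1, MBTPS2, ME1, MID1IP1 and TMEM97, with differences between 0.89 and 2.08. For ACAT1, ACSL1 and MBTPS1 the NB1691 arrays overlapped with those of other lines, and for the rest they lay above all others. ACAT1 was at 10.46 and 9.77 in NB1691 under vehicle and ciclopirox, below SKNBE2 at 11.20 and 11.21. ACSL1 was at 9.72 and 9.66 in NB1691, against 9.77 in SKNAS/shHIF1a under ciclopirox. Those lower than the mean of the other lines were ABCA1, ABCG1, GGPS1, LPCAT3, NPC2, PNPLA3 and SOAT1. ABCA1, which exports cholesterol from cells, had vehicle levels of 7.71 in SKNAS, 3.25 in NB1691, 4.44 in SKNBE2 and 7.80 in SKNAS/shHIF1a and ciclopirox levels of 7.98, 3.53, 4.33 and 9.05, so that NB1691 was near background and the size of its difference is uncertain. ABCG1, another sterol exporter, was near or below the level required for testing in every line but SKNBE2, with vehicle levels of 2.98 in SKNAS, 2.49 in NB1691, 7.81 in SKNBE2 and 2.97 in SKNAS/shHIF1a. NPC2 and PNPLA3 were lower in NB1691 than in the SKNAS lines but not than in SKNBE2, where vehicle levels were 6.35 for NPC2 and 4.53 for PNPLA3, against 6.54 and 5.31 in NB1691. MBTPS1 and MBTPS2 encode the proteases that release SREBP, and they differed by 0.89 ± 0.23 and 0.89 ± 0.17. In NB1691 MBTPS1 went from 8.56 under vehicle to 7.56 under ciclopirox, and in SKNBE2 from 7.82 to 7.99. MBTPS1 was thus highest in NB1691 under vehicle only, and it was also lower with the drug in SKNAS and SKNAS/shHIF1a. The interval of its NB1691 difference in change was -1.68 to 0.08 in limma. MBTPS2 went from 10.89 to 10.60 in NB1691.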

How the data were processed

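Values are log2 signals per probe set that the authors made with RMA (robust multi-array average) and deposited, per the submitters' processing notes. Software version and genome build are not given in the sources used here. The promoters are RefSeq sequence. Of 54715 probe sets, 40914 carried exactly 1 gene symbol (40858 matched to RefSeq by gene ID), 864 several and 102 were controls. Each of 19774 genes took its brightest probe set, and 14517 genes were tested, those whose mean reached log2 3.208, a floor set at the 40th percentile over probe sets.

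limma 3.58.1 in R 4.3.3 fitted treatment with cell line as a block (3 residual degrees of freedom), the NB1691 level contrast in the same fit, and the 4 line differences with an NB1691 term (2 residual degrees of freedom). All p-values are two-sided, adjusted by the Benjamini-Hochberg method over the genes tested, with 0.05 as threshold. Fits were tested on simulated data. Arrays were paired because they share a cell line. With 4 arrays per treatment, 1 per line, p-values of the treatment and level fits measure the spread of the ciclopirox change among the 4 lines. Those of the NB1691 difference measure the spread of changes among the other 3 lines, of which SKNAS and SKNAS/shHIF1a are related. The number of arrays limits the precision.

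The members, the lists and the choice of NB1691 were made with earlier results of these data known. All measured members are named. Array values are given for the 12 widest ranges of change and for members past a test, and further genes are named if past a test or among the 4 largest NB1691 differences. Alternatives covered the block, the lines, the filter, the probe sets, the scaling and an intensity trend.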

Additional observations from a re-analysis of the deposited data

Results flagged for a closer look

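In groups of 4 values, 1 per line, a value was singled out when its gap to the nearest other, divided by the whole range, was above Dixon's critical value. Chance singles out about 1 in 20 such groups, and 84 were looked at. The groups are not independent, since a gene's change is made from its levels, and no share over all genes tested is given. Members and NB1691 were chosen with earlier results known, so the counts are a description and cannot show an excess over chance. The rule singled out 10 values, of which 9 were from NB1691 and 7 were NB1691 changes. Those changes were 0.71 for ACAT2, 1.16 for HMGCS1, 0.97 for MVK, 0.85 for MVD, 1.28 for IDI1, 1.5 for MSMO1 and 1.21 for SC5D. The NB1691 levels singled out were MVD under ciclopirox at 4.21 and NSDHL under vehicle at 7.0. SCAP was singled out for its change of -0.14 in SKNAS/shHIF1a, where the other lines lay within 0.01 of each other.

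For 7 genes the change in NB1691 was positive while those of the other 3 lines were negative, and this opposition as such was not tested. The NB1691 changes were 0.71 for ACAT2, 1.16 for HMGCS1, 0.97 for MVK, 0.20 for FDPS, 1.07 for NSDHL, 0.67 for HSD17B7 and 0.97 for EBP. The same pattern was found in 8.2% of all genes tested.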

How the results depend on the processing

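The 11 genes higher in NB1691 at an unadjusted p under 0.05 kept a positive difference in every alternative, though IDI1 came to 0.03 with the mean of its probe sets. No member passed the adjusted limma test of that difference in any alternative. The median difference over members was 0.60, and became 0.68 with the mean of probe sets and 0.78 with arrays centred on their medians, a scaling that moved the median of all genes tested from -0.02 to 0.17. With 1 line left out it ran from 0.55 to 0.58. The NB1691 difference turned sign for SCD (0.0739 without SKNBE2, 0.95 with mean probe sets, 0.16 centred), LSS (0.32 with mean probe sets, 0.086 centred), SCAP (0.15 centred, 0.0584 with quantile normalization), PMVK (0.0562 centred) and SREBF1 (-0.0381 without SKNAS/shHIF1a). The cause was not tested. Members past the level test numbered 13, against 5 to 12 with 1 line left out (7 without SKNAS/shHIF1a), 5 with SKNAS lines averaged and 8 with mean probe sets, and genes past it 5532, against 3608 to 5822 with 1 line left out. For ciclopirox against vehicle, members at an unadjusted p under 0.05 numbered 4, against 1 without the cell line block (no replicate block), 2 with SKNAS lines averaged and 2 to 5 with 1 line left out. Members at least 1.5-fold lower became 2 in SKNBE2 with mean probe sets, 3 in SKNAS centred, and 1 in NB1691 centred or quantile normalized.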
